A study of Homo sapiens with 6 samples.

Results

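The genes described here had almost no reads in untreated MDA-MB-231-DR cells and were read in every library after treatment with cyperotundone (CYT). They were chosen from the raw counts themselves. A gene entered with at most 3 counts in each of the 3 control libraries and at least 30 counts in each of the 3 CYT libraries. Antisense genes and long intergenic noncoding RNAs were left out, as were OVOL1 and FOXA3. The rule found 33 of the 58302 genes in the table, of which 25 are protein coding and 8 are pseudogenes or noncoding genes. The difference between the groups was used to pick these genes, so it is described below and carries no test.

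The RNA came from MDA-MB-231-DR, a doxorubicin-resistant line derived from MDA-MB-231, a mesenchymal-like triple-negative breast cancer cell line. The resistant line was kept in medium with a low concentration of doxorubicin, a feature that control and CYT cells share, and the study asked which genes CYT changes in such cells. CYT is a sesquiterpene ketone from the sedge Cyperus rotundus, and its dose and treatment time for these libraries are not given in the sources used here. Each group had 3 libraries of the same line, and nothing in the labels says that they came from separate cultures, so p-values below measure only the spread between these samples.

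Control libraries held 14050849 to 17770102 counts in all and CYT libraries 13056270 to 14106017. Within groups, the correlation of log2 levels between libraries lay between 0.904 and 0.971 and was lowest for both pairs with CYT replicate 2. All 10 markers listed for the cell line were read in every library, with VIM (vimentin) at 36428, 44600 and 38144 counts in control and 13599, 15720 and 11463 after CYT. Their sum was 5076 to 6315 CPM in control and 3098 to 3695 CPM after CYT, with 2 of the 10 called lower, and that of 10 luminal epithelial markers was 212 to 433 CPM in control and 17.4 to 48.5 CPM after CYT. That last fall was almost wholly KRT19, at 6722, 3767 and 3395 counts in control and 546, 147 and 378 after CYT, while EPCAM was at 12, 4 and 7 and then 10, 9 and 11. In bulk RNA, a low level in every cell and a high level in a few cells cannot be told apart.

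Most genes of a genome are silent in any one cell type. Tissue-restricted genes are commonly held off by DNA methylation, repressive histone marks and repressors such as REST, and stray transcripts are removed by the nuclear exosome. Promoters fall into a class rich in CpG, typical of broadly used and developmental genes, and a class poor in CpG, typical of genes confined to one tissue. INSM2 encodes a zinc finger transcription factor of neuroendocrine cells. CCM2L is a paralogue of CCM2, a scaffold of the cerebral cavernous malformation (CCM) pathway, which restrains the kinase MEKK3 and its targets KLF2 and KLF4 in endothelium.

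CCM2L and INSM2 had the highest summed CYT counts of the 33 genes. CCM2L (ENSG00000101331, chr20:32010450-32032180, hg38) had 0, 0 and 2 counts in control and 351, 176 and 454 counts after CYT. INSM2 (ENSG00000168348, chr14:35534042-35537054) was at 0 in all 3 control libraries and at 265, 367 and 288 counts after CYT. The lowest CYT library of either gene thus stood far above its highest control library, while CYT replicate 2 was the lowest for CCM2L and the highest for INSM2. After scaling by the trimmed mean of M-values (TMM), which corrects for library size and composition, CCM2L was at 24.4 ± 11.8 CPM (counts scaled to a common library size; SD, n = 3) and INSM2 at 22.6 ± 3.73 CPM after CYT. With the control level of INSM2 set to a floor of 3 counts in each library, INSM2 was at least 120.6-fold higher. The ratio for CCM2L was 586.7, with an exact 95% interval from 162 to 4852, since it rests on 2 control counts. These bounds and intervals cover counting error only.

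**Figure D1:**
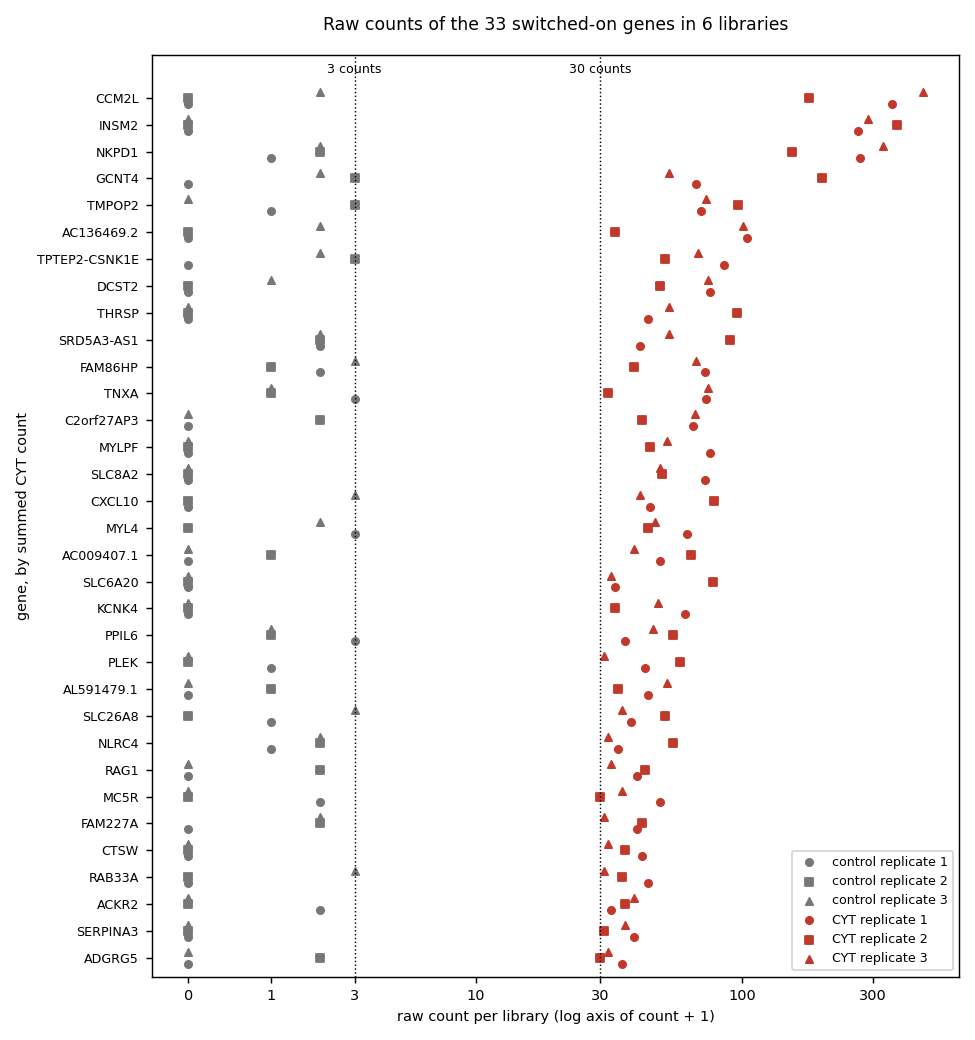
Raw count of each of the 33 genes in each library, on a logarithmic axis of count + 1, with control libraries in grey and CYT libraries in red. Dotted lines mark the limits of the rule at 3 and 30 counts, and the genes are ordered by summed CYT count, with CCM2L (981), INSM2 (920) and NKPD1 (746) at the top.

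NKPD1, a predicted nucleoside triphosphatase whose function is little known, came next by summed CYT count. It had 1, 2 and 2 counts in control and 269, 152 and 325 after CYT, or 18.5 ± 7.51 CPM. Below these 3 genes the summed CYT count dropped to 317 for GCNT4 and then to 242 or less. Over all 33 genes the summed CYT count ran from 98 to 981, with a median of 156, and no gene had more than 6 counts over the 3 control libraries. Their joint count was 22, 28 and 33 in control and 2523, 2368 and 2544 after CYT, the latter 0.0179, 0.0181 and 0.0190% of all counts. The joint share thus varied little between CYT libraries, although single genes varied widely.

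The control level was 0 in all libraries for 8 of the 33 genes, which were INSM2, THRSP, MYLPF, CTSW, SLC8A2, KCNK4, SLC6A20 and SERPINA3. Their lower bounds ran from 14.2-fold for SERPINA3 to the value for INSM2. For the other 25 genes, with 1 to 6 control counts, the ratios ran from 29.4 for NLRC4, with an exact interval from 12.3 to 92.2, to the value for CCM2L. All 33 genes passed edgeR's filter on low counts, which their CYT libraries alone secure.

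The 33 genes are a small part of those silent in control. Of 28826 genes of the kinds kept here with at most 3 counts in every control library, 0.114% reached 30 counts in every CYT library, while 93.3% had at least 1 CYT library at 0. Among the 5888 protein-coding genes silent in control, 25 (0.425%) reached 30 and 144 reached 10 counts in every CYT library. The reverse rule, at most 3 counts after CYT and at least 30 in control, found 6 genes of these kinds. Just inside the limits lay ADGRG5 with 36, 30 and 32 CYT counts and MC5R with 50, 30 and 36. Just outside lay TDRD6 with 40, 83 and 29 CYT counts and PSMB11 with 44, 28 and 67, both at 0 in control. NLGN3, with 4 counts in every control library and 61, 31 and 61 after CYT, was kept out by 1 count a library.

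Among the coding genes, 7 belong to immune or inflammatory processes. CXCL10, an interferon-induced chemokine that draws T cells through the receptor CXCR3, had 0, 0 and 3 counts in control and 46, 79 and 42 after CYT. ACKR2, a decoy receptor that removes CC chemokines, had 2, 0 and 0 counts and then 33, 37 and 40. CXCL10 had its highest count in replicate 2, while ACKR2 had nearly equal counts in all 3 CYT libraries. NLRC4, an inflammasome sensor that works with NAIP proteins, had 1, 2 and 2 counts in control and 35, 56 and 32 after CYT. CTSW, a cathepsin of cytotoxic lymphocytes, was at 0 in control and had 43, 37 and 32 counts after CYT. RAG1, a subunit of the recombinase that assembles antigen receptor genes, had 0, 2 and 0 and then 41, 44 and 33. In CTSW the CYT libraries differed little, and in NLRC4 replicate 2 was the highest.
PLEK, the protein kinase C substrate pleckstrin of platelets and leukocytes, had 1, 0 and 0 counts in control and 44, 59 and 31 after CYT. SERPINA3, the acute-phase inhibitor antichymotrypsin, was at 0 in control and at 40, 31 and 37 after CYT. The summed level of 10 leukocyte markers was 0.320 to 1.80 CPM in control and 4.87 to 7.05 CPM after CYT. CD3E, of T cells, was at 0 in all 6 libraries, and PTPRC, the general leukocyte antigen CD45, was at 0 in control and at 7, 2 and 2 counts after CYT. CD14 made up most of the sum, at 10, 4 and 19 counts in control and 51, 59 and 49 after CYT.

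A second group of 4 genes carries ions and amino acids across membranes. SLC8A2, a sodium and calcium exchanger of neurons, was at 0 in control and at 73, 51 and 50 counts after CYT. KCNK4, the potassium leak channel TRAAK, was at 0 in control and at 62, 34 and 49 after CYT. SLC6A20, a proline transporter of kidney and gut, was at 0 in control and at 34, 78 and 33. For SLC6A20 replicate 2 alone held more counts than the other CYT libraries together. SLC26A8, an anion transporter of sperm, had 1, 0 and 3 counts in control and 39, 52 and 36 after CYT.

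Both muscle genes encode myosin light chains. MYLPF, the regulatory light chain of fast skeletal muscle, was at 0 in control and at 76, 46 and 53 counts after CYT. MYL4, the light chain of atrial and embryonic muscle, had 3, 0 and 2 counts in control and 63, 45 and 48 after CYT. In both genes replicate 1 was the highest and replicate 2 the lowest. The muscle regulator MYOD1 and the cardiac troponin TNNT2 were at 0 in every library. Other muscle markers differed in direction, with CKM at 0 in control and at 16, 0 and 21 counts after CYT, ACTC1 at 0, 1 and 0 and then 20, 4 and 17, and desmin (DES) at 15, 8 and 18 and then 0 in all 3. The sum of 10 muscle markers was 1.74 to 3.02 CPM in control and 4.13 to 6.63 CPM after CYT.

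THRSP, a thyroid hormone-induced regulator of fatty acid synthesis in liver and mammary gland, was at 0 in control and at 45, 96 and 54 counts after CYT. GCNT4, an enzyme that branches O-linked sugar chains, had 0, 3 and 2 counts in control and 68, 195 and 54 after CYT. In both genes replicate 2 was far above the other CYT libraries, and GCNT4 had the widest spread of the 33 genes relative to its mean, at 7.66 ± 5.40 CPM, or 4.54 CPM without CYT replicate 2. PPIL6, a cyclophilin-like protein, had 3, 1 and 1 counts in control and 37, 56 and 47 after CYT. For hepatocyte markers, the sum of 10 was 1.08 to 2.67 CPM in control and 5.69 to 7.90 CPM after CYT, and ALB was at 0 in control and at 12, 14 and 9 counts after CYT. SERPINA1, at 26, 12 and 12 and then 52, 7 and 45 counts, and TF, at 0, 1 and 0 and then 24, 24 and 20, had the largest counts of the list in CYT replicates 1 and 3, while APOA1 was at 10, 14 and 3 and then 6, 9 and 13.

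A further 3 genes act in receptor signalling and vesicle traffic. MC5R, a melanocortin receptor of exocrine glands, had 2, 0 and 0 counts in control against its CYT counts given above, and ADGRG5, an adhesion G protein-coupled receptor of leukocytes, had 0, 2 and 0. RAB33A, a small GTPase of brain and immune cells, had 0, 0 and 3 counts in control and 45, 36 and 31 after CYT. Their CYT sums, from 98 to 116, were among the smallest of the 33. DCST2, a sperm membrane protein needed for fusion with the egg, had 0, 0 and 1 counts in control and 76, 50 and 75 after CYT. FAM227A, a gene of little known function, had 0, 2 and 2 counts and then 41, 43 and 31. The germ cell markers TNP1, PRM1, PRM2 and STRA8 were at 0 in all libraries, and the sum of 10 such markers was 0.434 to 1.29 CPM in control and 2.62 to 4.70 CPM after CYT. MAEL made up most of that sum, at 7, 17 and 14 counts in control and 26, 54 and 28 after CYT. The contribution of any other cell type to these values was not tested.

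TPTEP2-CSNK1E, the remaining coding gene, is annotated as a transcript that runs through TPTEP2 into CSNK1E, the gene of a casein kinase. It had 0, 3 and 2 counts in control and 86, 52 and 69 after CYT. Of its exonic bases 95.2% are shared with other genes. TPTEP2 itself rose, from 20, 18 and 15 counts to 50, 67 and 49, with a log2 fold change of 1.89 (SE 0.41) and an adjusted p of 0.00836. CSNK1E had a log2 fold change of −1.40 (SE 0.42, adjusted p = 0.0323), and this call was lost without control replicate 1 (adjusted p = 0.0843), control replicate 3 (0.110) or CYT replicate 3 (0.0961). Adjusted p-values here and below come from edgeR (quasi-likelihood F-test, Benjamini-Hochberg over 15572 genes). How the counting divided reads among the 3 genes is not given in the sources used here, so the value of the joined transcript is uncertain.

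The 8 genes without a protein had CYT sums from 133 to 242 counts. TMPOP2, a processed pseudogene of TMPO, the gene of the nuclear lamina protein thymopoietin, had 1, 3 and 0 counts in control and 71, 97 and 74 after CYT. AC136469.2, a gene model that awaits experimental proof, had 0, 0 and 2 and then 104, 34 and 101. AC009407.1, a sense-overlapping RNA, had 0, 1 and 0 and then 50, 65 and 40. Replicate 2 was the highest of the CYT libraries for TMPOP2 and AC009407.1 and by far the lowest for AC136469.2. SRD5A3-AS1, typed as a processed transcript although named as antisense to SRD5A3, had 2 counts in each control library and 42, 90 and 54 after CYT. Whether the counting told the strands apart is not given in the sources used here.
C2orf27AP3 had 0, 2 and 0 counts in control and 66, 43 and 67 after CYT. AL591479.1 had 0, 1 and 0 and then 45, 35 and 53. These 2 are unprocessed pseudogenes, copies of a gene made by duplication. FAM86HP, a pseudogene of the FAM86 methyltransferase family, had 2, 1 and 3 counts and then 73, 40 and 68. TNXA, a partial copy of the tenascin gene TNXB in the major histocompatibility complex, had 3, 1 and 1 counts in control and 74, 32 and 75 after CYT. Reads of such near-identical copies may be divided between the copy and its source, so these counts are uncertain.

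Levels can be compared between genes only per length. Per kilobase of exonic length in GENCODE release 29, the mean level after CYT ran from 0.260 CPM per kb for FAM227A to 9.45 for CCM2L, with a median of 1.62. C2orf27AP3 followed CCM2L at 7.51 ± 2.01, INSM2 stood at 7.49 ± 1.24 and AC009407.1 at 6.32 ± 1.26 CPM per kb (SD, n = 3). These genes at the top did not differ from each other beyond their spread, with CCM2L itself at 9.45 ± 4.55. At the other end RAG1 was at 0.369 ± 0.0326 and FAM227A at 0.260 ± 0.0286 CPM per kb, a gap wider than both SDs together. Over all 15550 tested genes with a length the median was 3.71 CPM per kb, with quartiles of 1.18 and 11.6. Of the 33 genes, 23 lay below that median, whereas CCM2L lay above 70.8% and INSM2 above 66.2% of the tested genes. The genes thus ended, apart from a few, at low to middle levels of the CYT libraries.

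**Figure D2:**
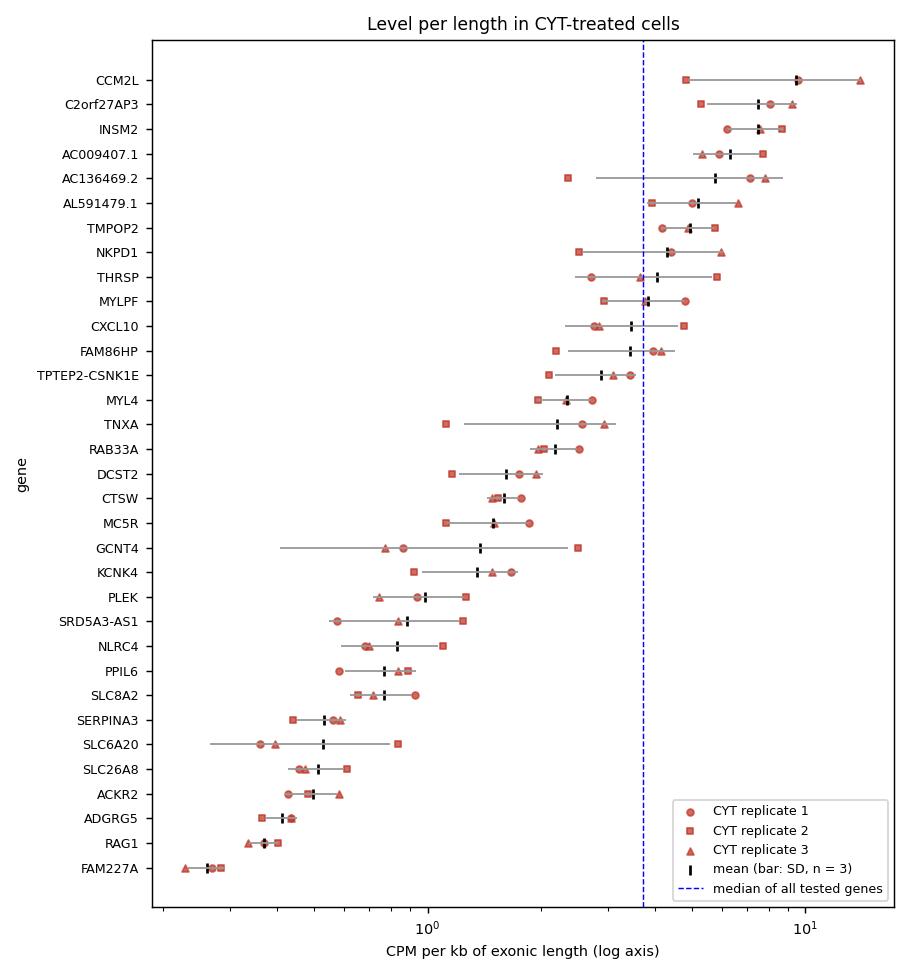
Level of each of the 33 genes in CYT libraries, in CPM per kilobase of exonic length on a logarithmic axis, with symbols for the replicates, a black mark for the mean and a bar for the SD (n = 3). The dashed line is the median of all tested genes, 3.71 CPM per kb, which 10 of the genes exceeded.

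The 3 CYT libraries did not rank alike for these genes. Replicate 2 was the highest for 14, the lowest for 16 and in the middle for only 3 of the 33 genes. Among all tested genes it was the highest for 43.8% and the lowest for 43.3%, so the 33 genes, at 42.4% and 48.5%, were close to the rest. The log2 ratio of replicate 2 to the mean of replicates 1 and 3 ran from −1.67 for AC136469.2 to 1.61 for GCNT4, with a median size of 0.58. Replicates 1 and 3 differed from each other by a median of 0.22 on the same scale. Over the 33 genes the deviation of replicate 2 went with base composition, with a Spearman rho of −0.808 and a Pearson r of −0.834 against the G+C content of the longest transcript. Over 15357 tested genes rho was −0.748. All these points share the same 3 libraries, so the correlations are given as a description without a p. The genes highest in replicate 2 had a median G+C content of 47.0%, from 36.0 to 58.2%, and those lowest in it one of 58.6%, from 53.5 to 68.1%. Without CYT replicate 2 the rule found 44 genes, and the part of base composition in the values of single genes was not tested.

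**Figure D3:**
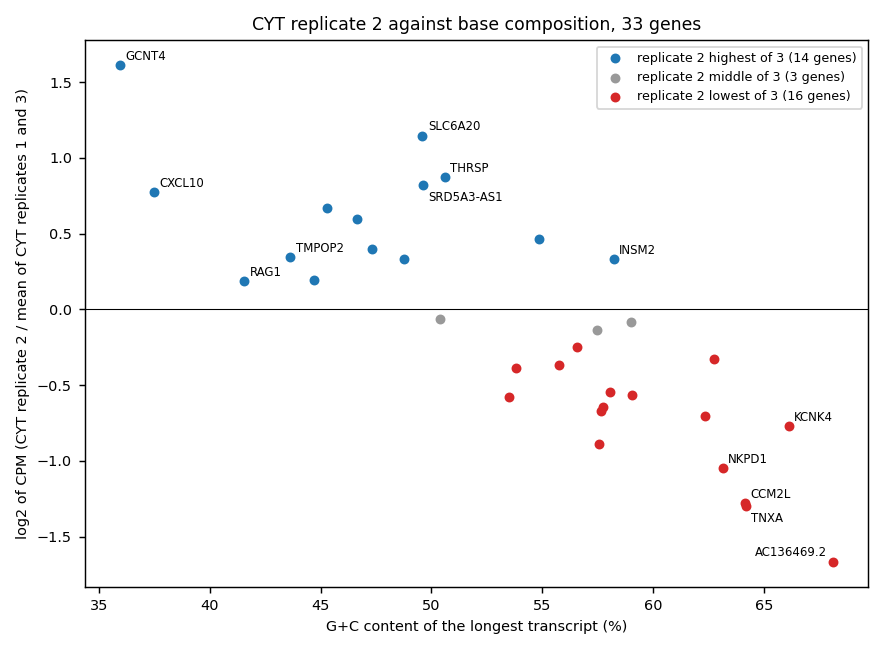
Each point is 1 of the 33 genes, with the G+C content of its longest transcript in percent against the log2 ratio of its CPM in CYT replicate 2 to the mean of CYT replicates 1 and 3. Genes rich in G and C, such as CCM2L and AC136469.2, lay low in replicate 2 and genes poor in them, such as GCNT4 and CXCL10, lay high, with a Spearman rho of −0.808.

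Promoter sequence was looked at as a property that the rule did not use. RefSeq promoters (GRCh38.p14, from 250 bases before to 50 bases after the start) were at hand for 17 of the 25 coding genes. The ratio of observed to expected CpG had a median of 0.556 in them, from 0.173 for THRSP to 1.01 for SLC6A20, against 0.768 over 14888 coding-gene promoters, with quartiles of 0.410 and 0.915. It was under 0.6 in 10 of the 17 promoters (58.8%) and in 33.4% of all. CXCL10, DCST2, PLEK, SERPINA3 and KCNK4 were among the CpG-poor ones, and INSM2, MC5R, RAG1 and FAM227A among the CpG-rich. The RefSeq starts of GCNT4, NKPD1 and RAG1 lie upstream of the counted gene models, so these windows may not be the promoters of the RNA counted. The G+C content itself was alike, with medians of 63.3% and 63.0%. The bases before the start are shown for INSM2 (chr14:35533914-35534041, plus strand), SLC6A20 (chr3:45796537-45796786, minus strand), THRSP (chr11:78063611-78063860, plus strand) and CXCL10 (chr4:76023498-76023747, minus strand), all at 0 or nearly 0 in control, to set both classes side by side. For INSM2 the stretch ends where the GENCODE gene begins, upstream of the RefSeq start, and for the other genes it ends at the RefSeq start. They run 5′ to 3′ with each CG in capitals.
INSM2: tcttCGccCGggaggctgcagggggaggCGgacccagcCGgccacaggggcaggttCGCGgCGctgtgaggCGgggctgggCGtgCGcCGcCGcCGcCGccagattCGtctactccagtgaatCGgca
SLC6A20: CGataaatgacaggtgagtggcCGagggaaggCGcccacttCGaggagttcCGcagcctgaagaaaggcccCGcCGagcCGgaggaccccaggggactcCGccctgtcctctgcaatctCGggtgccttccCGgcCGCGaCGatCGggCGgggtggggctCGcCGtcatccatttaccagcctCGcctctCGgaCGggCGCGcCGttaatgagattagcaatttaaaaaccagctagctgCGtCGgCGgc
THRSP: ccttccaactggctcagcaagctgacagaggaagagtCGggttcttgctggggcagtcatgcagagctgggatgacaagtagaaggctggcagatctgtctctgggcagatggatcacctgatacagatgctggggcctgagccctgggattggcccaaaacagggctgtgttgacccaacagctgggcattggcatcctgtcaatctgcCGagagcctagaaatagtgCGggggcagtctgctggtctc
CXCL10: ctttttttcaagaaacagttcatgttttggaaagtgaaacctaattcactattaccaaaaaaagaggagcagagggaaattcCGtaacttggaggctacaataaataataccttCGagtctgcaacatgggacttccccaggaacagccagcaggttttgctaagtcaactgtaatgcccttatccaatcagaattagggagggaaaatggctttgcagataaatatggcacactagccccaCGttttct
The INSM2 stretch holds 16 CpG in 128 bases and that of SLC6A20 27 in 250, whereas THRSP and CXCL10 have 3 each in 250. Genes of both classes were therefore silent in control and read after CYT.

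Short motifs were searched on both strands of the 17 promoters. The AP-1 motif TGANTCA was in 1 promoter, that of FAM227A (5.88%, against 5.78% of all coding-gene promoters), and the cyclic AMP response element TGACGTCA in none (2.59% of all). The TATA motif TATAAA was in 2 promoters, those of INSM2 and NLRC4 (11.8% against 9.36%). The INSM2 stretch shown above lacks it, so that match lies past the start of the GENCODE gene. CCAAT was in 6 (35.3% against 36.4%), the GC box GGGCGG in 11 (64.7% against 59.5%), the core of the antioxidant response element TGANNNNGC in 6 (35.3% against 42.5%) and the E-box CAGGTG in 3 (17.6% against 19.8%). The core of the xenobiotic response element, GCGTG, was in 1 promoter, that of INSM2 (5.88% against 44.4%). A match is a string of letters and not a binding site.

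**Figure D4:**
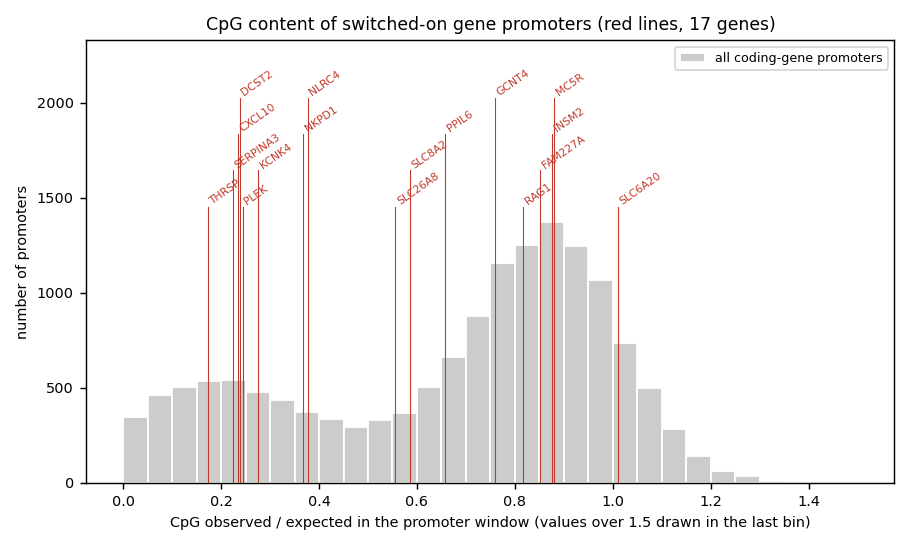
Grey bars give the number of coding-gene promoters by the ratio of observed to expected CpG, and red lines mark the promoters of 17 of the genes, whose height has no meaning. The genes fall in both modes of the distribution, 10 of them below 0.6.

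The 33 genes lie on 16 chromosomes, so they are not one locus. Of them 17 are overlapped by another gene and 12 share exonic bases with it, over 25% of them in 6 genes. Besides TPTEP2-CSNK1E these are KCNK4 (61.9%), AC136469.2 (33.6%), SERPINA3 (31.8%), CCM2L (27.3%) and ACKR2 (25.2%). All 1628 shared bases of KCNK4 lie in the longer KCNK4-TEX40 model, which had 34, 10 and 27 counts in control and 17, 33 and 23 after CYT. The values of these 6 genes can hold reads of their partners.

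The genes around them, which the rule did not use, were tested to see whether whole neighbourhoods rose. Genes that overlap one of the 33 or lie nearest on either side numbered 92, of which 49 passed the filter. Of these, 7 rose and 7 fell, or 28.6%, and their median log2 fold change was −0.06. Among all 15572 tested genes 27.4% passed an adjusted p of 0.05 in edgeR's quasi-likelihood test and an absolute log2 fold change of 1, 15.2% higher and 12.2% lower, with a median of 0.01. The share of called neighbours was thus near that of all genes. Under upper-quartile scaling, which moved the median over all tested genes to 0.155, 7 neighbours rose and 3 fell, and with a replicate block 7 rose and 9 fell, CCDC102A beside ADGRG5 and NDUFC2-KCTD14 over THRSP being added. Without control replicate 1 only 6 neighbours were called, without control replicate 2 or 3 there were 7, without CYT replicate 3 there were 8 and without CYT replicate 1 there were 9.

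The neighbour that rose most was AL359711.2, an antisense gene downstream of PPIL6, which went from 5, 5 and 0 counts in control to 78, 108 and 58 after CYT. Its log2 fold change was 4.83 (SE 0.70, adjusted p = 0.00161). CXCL11, the chemokine gene 10185 bp upstream of CXCL10 and a ligand of the same receptor, had 7, 6 and 0 counts in control and 64, 68 and 53 after CYT, a log2 fold change of 4.08 (SE 0.71, adjusted p = 0.00325). Both stayed called under all 10 alternatives. The remaining ligand of that receptor, CXCL9, was at 0 in control and at 1, 6 and 5 counts, and the receptor CXCR3 at 0 in control and at most 5. Within this cluster the rise was thus read in CXCL10 and CXCL11, with CXCL9 too low to test. TRAPPC6A, a vesicle tethering subunit beside NKPD1, rose by 1.75 on the log2 scale (SE 0.38, adjusted p = 0.00872). AIFM1, the apoptosis-inducing factor gene beside RAB33A, fell by 2.07 (SE 0.34, adjusted p = 0.00239), and KCTD14, beside THRSP, fell by 1.75 (SE 0.29, adjusted p = 0.00276).
ALG1L2, which overlaps FAM86HP, had a log2 fold change of 2.40 (adjusted p = 0.0141). CCDC85B beside CTSW had one of −1.71 (adjusted p = 0.0422). Each lost its call without any one of the 3 control libraries, with adjusted p-values from 0.0612 to 0.0999, and CCDC85B also without CYT replicate 3 (0.0720) or under upper-quartile scaling (0.0546). ALG1L2 was also lost with no filter on low counts (0.0618). RALGAPA1, the gene next to INSM2, had 127, 183 and 110 counts in control and 97, 227 and 57 after CYT, a log2 fold change of 0.11 (SE 0.46, adjusted p = 0.884). INSM2 thus rose from 0 beside a gene for which no change was detected.

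**Figure D5:**
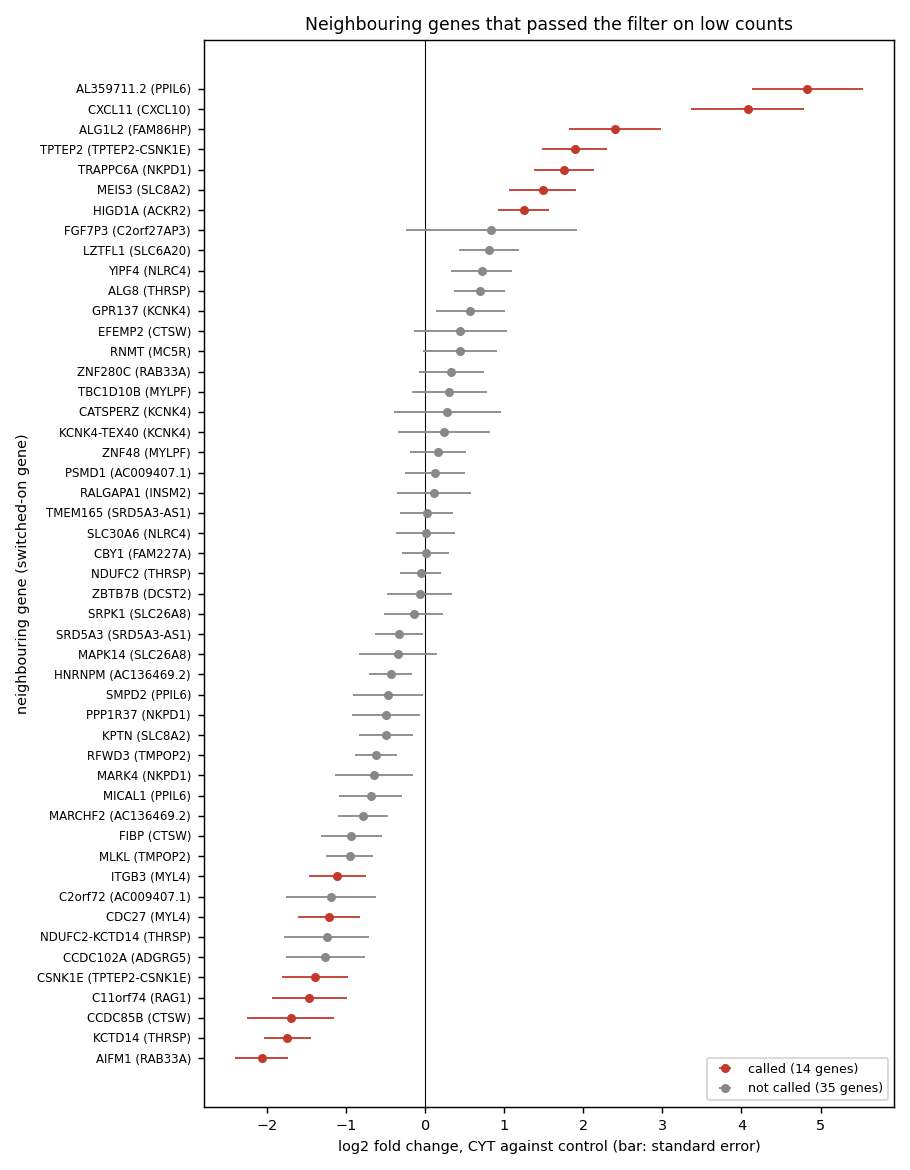
Log2 fold change (CYT against control) with its standard error from edgeR for the 49 neighbouring genes that passed the filter, with the switched-on gene in brackets. Called genes are red, 7 higher and 7 lower, and AL359711.2 and CXCL11 stand above the rest.

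Some of the genes start back to back with another gene. A coding gene on the opposite strand started within 1000 bp of the start of 5 of the 25 coding genes (20%), against 7.33% of all 19817 coding genes. The pairs were FAM227A with CBY1 at 7 bp, DCST2 with DCST1 at 43 bp, ACKR2 with HIGD1A at 221 bp, RAG1 with TRAF6 at 437 bp and MYLPF with TBC1D10B at 670 bp. The noncoding SRD5A3-AS1 lay 110 bp from TMEM165 and TMPOP2 625 bp from RFWD3. CBY1 had 615, 452 and 396 counts in control and 442, 368 and 421 after CYT, a log2 fold change of 0.00 (SE 0.30, adjusted p = 0.997). TMEM165 was at 0.02 (SE 0.33, adjusted p = 0.978) and TRAF6 at −0.09 (SE 0.34, adjusted p = 0.864). These partners were well read in control, unlike FAM227A, SRD5A3-AS1 and RAG1, which start next to them.
HIGD1A was the only called partner of the 6 tested, at a log2 fold change of 1.24 (SE 0.32, adjusted p = 0.0187), and its call was lost without control replicate 1 (0.0773), control replicate 2 (0.0647) or CYT replicate 1 (0.0582). RFWD3, with a log2 fold change of −0.62, and TBC1D10B, with 0.30, were not called. DCST1 had 1, 0 and 3 counts in control and 7, 9 and 12 after CYT, too few for the filter. The pairs were named after their positions were known and not by size of change.

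Paralogues, partners and source genes of the 33 genes were listed with the genes already known. Of 46 such genes 26 passed the filter, 4 rose and 4 fell, or 30.8%, against 27.4% of all tested genes. With a replicate block 7 rose and 4 fell, since FAM86B2 (adjusted p = 0.0582 without and 0.0223 with the block), RAB33B (0.0866 and 0.0126) and GCNT1 (0.0880 and 0.0196) were added. That is 42.3% of the 26, against 32.2% of all tested genes under the same block. INSM1, the paralogue of INSM2, had 0, 0 and 2 counts in control and 4, 0 and 2 after CYT. CCM2, the paralogue of CCM2L, had 1442, 1322 and 1171 counts in control and 1174, 390 and 1115 after CYT, a log2 fold change of −0.29 (SE 0.42, adjusted p = 0.637). The members of each pair thus had separate values, with INSM1 at the floor in both groups and CCM2 well read in both.

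FAM86B1 and FAM86C1, relatives of FAM86HP, were both called. FAM86B1 rose from 60, 32 and 39 counts to 166, 144 and 103 (log2 fold change 1.87, SE 0.4, adjusted p = 0.00772). FAM86C1 fell by 1.07 on the log2 scale (SE 0.35, adjusted p = 0.0435), a call lost in 5 of 10 alternatives. Of the other relatives, TNXB, ADGRG1 and PLEK2 are named because their values stood out. TNXB, the source gene of TNXA and the gene of tenascin-X, had 23, 8 and 7 counts in control and 385, 280 and 606 after CYT, a log2 fold change of 5.32 (SE 0.59, adjusted p = 0.000608), or 6.06 without control replicate 1. The TNXA counts rose with far larger counts of the near-identical gene. ADGRG1, a relative of ADGRG5, fell by 3.23 on the log2 scale (SE 0.42, adjusted p = 0.00111), from 381, 274 and 299 counts to 29, 18 and 38. PLEK2, the paralogue of PLEK, fell from 820, 544 and 602 counts to 168, 99 and 127 (adjusted p = 0.00288). RAG2, which RAG1 needs for recombination, was at 2 counts or fewer in control and at most 3 after CYT. The NLRC4 partner NAIP had a log2 fold change of −0.29 (SE 0.65, adjusted p = 0.771), and CASP1, the protease that this sensor activates, had 7, 23 and 13 counts in control and 0, 0 and 4 after CYT.

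In the CCM pathway, 15 of 16 listed genes were tested, of which 2 rose and 3 fell, or 33.3%, against 27.4% of all tested genes. The share was thus near that of all genes. ADAMTS4, a proteoglycan-cleaving protease, had 5, 0 and 0 counts in control and 54, 29 and 48 after CYT, a log2 fold change of 4.86 (SE 0.93, adjusted p = 0.00490). Without control replicate 1, which holds all its control counts, the fitted value was 8.56 and has no meaning as a size. RASIP1, a partner of HEG1 in endothelium, rose by 1.90 (SE 0.50, adjusted p = 0.0202), a call that was lost without control replicate 1 or 3 or CYT replicate 1 or 3 (adjusted p from 0.0636 to 0.0898). KLF2, a transcription factor downstream of MEKK3, fell from 726, 626 and 745 counts to 170, 39 and 150, with a log2 fold change of −2.30 (SE 0.52, adjusted p = 0.00987). MAP2K5, the kinase between MEKK3 and ERK5, fell by 1.92 (SE 0.37, adjusted p = 0.00478). The median over the 15 genes was −0.29, and without control replicate 1, CYT replicate 1 or CYT replicate 3 only 3 of them were called. Under upper-quartile scaling 2 rose and 2 fell. Endothelial markers summed to between 69.2 and 99.0 CPM in control and to between 20 and 46.0 CPM after CYT, most of it ESAM. CDH5 was at 4 counts or fewer and TIE1 at 3 or fewer in every library, while ROBO4 went from 115, 92 and 64 counts to 4, 15 and 20 and KDR from 5, 5 and 4 to 13, 27 and 18. Of the 5 endothelial markers tested 1 was higher and 2 were lower, and their part in the CCM2L values was not tested.

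Of 17 neuroendocrine genes only 3 passed the filter, of which 2 were called, too few to set against the 27.4% of all tested genes. POU3F2, a neural transcription factor, rose by 1.37 on the log2 scale (SE 0.41, adjusted p = 0.0316), and ENO2, neuron-specific enolase, fell by 1.36 (SE 0.34, adjusted p = 0.0151). Without control replicate 1 neither was called (adjusted p = 0.109 and 0.0633). POU3F2 was also lost without control replicate 2 (0.0788), control replicate 3 (0.0885) or CYT replicate 1 (0.0983) or with no filter on low counts (0.0779), and ENO2 without CYT replicate 3 (0.0631). The neuronal markers SNAP25 and NEFM were at 0 in all libraries, and the sum of 10 neuronal markers, 47.5 to 117 CPM in control and 170 to 215 CPM after CYT, was almost wholly the tubulin TUBB3, at 1830, 826 and 911 counts in control and 2377, 2976 and 2317 after CYT. MAP2, at 41, 40 and 27 and then 21, 26 and 10 counts, and SYT1, at 11, 23 and 13 and then 3, 14 and 12, were read in both groups, and no other neuronal marker exceeded 8 counts in a library. Their part in the INSM2 values was not tested.

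Of 34 genes of transcriptional silencing 33 were tested, and 2 rose and 4 fell, or 18.2%, below the share of all genes. REST, the repressor of neuronal genes, rose from 216, 501 and 234 counts to 602, 1541 and 595, a log2 fold change of 1.81 (SE 0.45, adjusted p = 0.0150). DNMT3B, a DNA methyltransferase, fell by 1.75 (SE 0.45, adjusted p = 0.0174), and DNMT1, which maintains methylation, had a log2 fold change of −1.04 (SE 0.29, adjusted p = 0.0255). Without control replicate 1 none of the 6 was called (REST at an adjusted p of 0.0662, DNMT3B at 0.0733, DNMT1 at 0.0886), and without control replicate 3 only 1 was. DNMT1 was also lost without any one CYT library and under upper-quartile scaling, where its log2 fold change was −0.892. Under upper-quartile scaling 3 rose and 2 fell, so no direction is given for the group, whose median was −0.03.

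Of the 25 genes of the nuclear exosome and of transcription termination, all tested, none rose and 8 fell, or 32.0%, against 12.2% of all tested genes lower and 27.4% called either way. CSTF2, a subunit of the cleavage stimulation factor, fell by 1.54 on the log2 scale (SE 0.32, adjusted p = 0.00722), and EXOSC8, a subunit of the exosome core, fell by 1.47 (SE 0.31, adjusted p = 0.00747). EXOSC7, of the same core, fell by 1.25 (adjusted p = 0.0106), a call lost without CYT replicate 3. The median over the list was −0.44, and −0.295 under upper-quartile scaling, where 5 fell. Leaving out single libraries left 3 to 6 called genes, with 3 without control replicate 1 or CYT replicate 3. The relation of any of these genes to the 33 switched-on genes was not tested.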

How the data were processed

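The authors separated mRNA, sequenced it on an Illumina platform, aligned clean reads with Hisat2, derived FPKM with Stringtie and deposited raw counts per gene and FPKM in 1 table of 6 libraries. The build is hg38 per the labels. Beyond the mention of software named edge for the statistics of genes, the program that made the counts, its annotation and its use of strand are not given in the sources used here. The deposited FPKM used a length equal to the GENCODE 29 exonic length within 1 bp for 12 of the 33 genes and a longer one, up to 3.40-fold, for 21, so levels per length were computed here from counts and exonic length. The 33 genes and all gene lists were chosen with earlier results of these data known. Groups and replicate numbers came from the sample titles.

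Tests used edgeR 4.0.16 under R 4.3.3 (TMM, filterByExpr with a minimum count of 10, quasi-likelihood test of CYT against control, Benjamini-Hochberg adjustment over 15572 genes). A gene was called at an adjusted p below 0.05 with a log2 fold change above 1 in size. The tests were tried on simulated data. Alternatives were DESeq2 1.42.0, upper-quartile scaling, no filter, a replicate block, leaving out each library, other limits of the rule and, chosen after seeing the data, the nearest coding neighbours. The deviations of same-numbered libraries had correlations of 0.188, 0.458 and 0.124. Control 1 went more closely with CYT 3 (0.303), however, and control 3 with CYT 1 (0.201). Whether same-numbered libraries are pairs is therefore not known. The main test used no pairing, and the replicate block was an alternative only. Ratios have exact binomial intervals at 95%. Replicate libraries differed well beyond counting noise, so none was treated as a copy. Named outside genes were called neighbours (up to 8 by size), up to 4 called genes of each list by adjusted p, and genes said above to be chosen otherwise. Some genes are not reported here by name.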

Additional observations from a re-analysis of the deposited data

How the results depend on the processing

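The number of switched-on genes follows the limits of the rule. It was 8 with 0 counts required in control, 50 with at most 5, 73 with at least 20 counts after CYT and 8 with at least 50. It was 39 with all libraries thinned to 13056270 counts, all 33 among them, 32 with the limits set on TMM-scaled counts, 29 of them shared, and 39 to 45 when single libraries were left out. With a replicate block, which pairs same-numbered libraries, 5011 genes were called against 4274 without it, 16 neighbours against 14, 5 CCM, 2 neuroendocrine and 6 silencing genes as before, and 7 exosome and termination genes against 8, EXOSC10 being lost with a log2 fold change just short of the limit. Apart from this and the neighbours and relatives given above, it changed no call among the genes listed. Leaving out single libraries gave 2891 to 4979 called genes, 6 to 15 called neighbours, 3 to 4 CCM, 0 to 2 neuroendocrine, 0 to 6 silencing and 3 to 6 exosome and termination genes. DESeq2 and upper-quartile scaling each gave 5 of the latter. Nearest coding neighbours gave 21 called of 62 (33.9%, 11 higher), against 27.4% of all genes. The cause of these shifts was not tested. For named genes outside the 33, 242 of 290 alternative values kept their call, 48 lost it and none reversed. Mean CYT levels of the 33 genes and the marker sums moved by less than 1 SD in all 132 and 56 alternatives. Leaving out 1 of 3 libraries cannot move the mean of a group by 1 SD of that group. Most of these alternatives are of that kind and so could not have shown a larger move. GCNT4, for one, went from 7.66 to 4.54 CPM without CYT replicate 2. Depth limits the control levels, since each rests on 6 counts or fewer over 3 libraries.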
